A study of Drosophila melanogaster with 7 samples.

Results

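The 10 genes described here belong to the Notch pathway and the Bearded family of *Drosophila melanogaster*. They were taken by their FlyBase symbols, with no filter on their values, from a table of 17699 gene identifiers. The list was drawn up with earlier results of these data known. It holds *N*, *Dl*, *neur*, *mib1*, *Su(H)*, *H*, *Brd*, *Tom*, *Ocho* and *E(spl)m8-HLH*. In HP1-KD embryos 8 of the 10 transcripts had a lower fitted level than in control embryos, as did 52.2% of all genes tested. Without control replicate 3, which stood apart from the other libraries, 6 of the 9 members tested were lower. *Tom* had the largest difference, at 37.2% of the control mean, or 56.4% without that library. None of the 10 differences passed the test across all genes, so each is given below with its values in every library and its interval.

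Total RNA was sequenced from embryos hand-staged to stage 5, the time of zygotic genome activation (ZGA), in 3 HP1-KD libraries and 4 control libraries. HP1-KD embryos came from mothers in which a hairpin against HP1 (Bloomington stock 33400) was driven in the female germ line by a Gal4 line (Bloomington stock 7063), and these mothers were mated to their siblings. Control embryos were of Bloomington stock 36303. Embryos were placed into Trizol one by one, but the labels do not say whether a library is 1 embryo, and p-values measure the spread between these libraries only. Per the labels and the study's text, the knockdown removes HP1 supplied by the mother, leaves residual protein and is lethal, and only a small share of these embryos get as far as ZGA. The study also notes an inversion on 2L in HP1-KD embryos, the arm that carries *Su(H)*. Whether the control embryos carried the driver is not given in the sources used here. One label of the HP1-KD samples, that of the tissue, calls the embryos wild type, and the group was taken from title and genotype instead.

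Notch is a receptor at the cell surface that is cleaved when a ligand on a neighbouring cell pulls on it, and the freed intracellular part enters the nucleus and joins the DNA-binding protein Su(H) to switch on target genes. The pull depends on endocytosis of the ligand, which the ubiquitin ligases Neuralized and Mindbomb1 set in motion, and the small Bearded proteins hold Neuralized back. In the blastoderm the Bearded genes are transcribed from the zygotic genome outside the mesoderm, where they hold Delta endocytosis back. Notch activity stays restricted to the border of the mesoderm.

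The knockdown was visible in *Su(var)2-5*, the gene of HP1a, which had 1174, 1426 and 1187 normalized counts in HP1-KD libraries, against 2727, 3122, 3958 and 3315 in control libraries. A normalized count is the CPM on edgeR's TMM scale times the mean effective library size. Its log2 fold change, HP1-KD over control, was −1.38 (SE 0.15), with an edgeR quasi-likelihood adjusted p of 0.00231. Libraries held 8678092 to 16983585.5 counts, of which ribosomal RNA genes took 37.3% to 80.7% in HP1-KD libraries and 15.3% to 47.2% in control libraries. HP1-KD libraries therefore held fewer counts outside ribosomal RNA, 3272009.5 to 5443432, against 7324415.5 to 11775952 in control libraries. The part of this depth gap in the member values was not tested. Control replicate 1 had the 47.2% of ribosomal RNA, above HP1-KD replicate 2 at 37.3%, and the other controls had at most 18.1%. Control replicate 3 stood apart from the other libraries. Its 8 maternal RNA markers summed to 7534 normalized counts, against 25826 to 28916 in HP1-KD libraries and 20420.4 to 30734 in the other controls, and it was the lowest of all 7 libraries for 7 of the 8, *smg*, a regulator of maternal RNA decay, being the most abundant. The neuronal marker *elav* reached 1062 normalized counts there, against 88.9 to 222 in HP1-KD libraries and 113 to 288 in the other controls, while of the 9 markers of differentiated cells 3 never reached 3 counts in any library, 2 of them with no count at all. Those 9 markers summed to 185 to 248 normalized counts in HP1-KD libraries and 120 to 1074 in control libraries. The blood cell marker *Hml* had 9, 8 and 7.5 deposited counts in HP1-KD libraries, against 0, 1, 0 and 1 in control libraries. *Lsp2* had 16 and *Obp99c* 12.5 in HP1-KD replicate 1, and at most 1 in any other library. *Mhc* had 3.5, 6.5 and 0 in HP1-KD libraries, against at most 2 in control libraries. *sage* went the other way, with 1, 3.5 and 2 in HP1-KD libraries, against 5.5, 9, 13.5 and 9 in control libraries. The 10 blastoderm markers were all detected, led by the cellularization gene *slam*. They summed to 23682 to 37268 normalized counts in HP1-KD libraries and 43124 to 46685 in control libraries. Among controls, replicate 3 was the lowest for 4 of these 10 markers and the highest for 5, which the sum does not show. The fold changes of the members are therefore given with and without control replicate 3.

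Receptor and ligand came first in the comparison. *N* (FBgn0004647), the Notch receptor, occupies positions 3134870 to 3172221 of chromosome X (dm6, plus strand), with 9 exon blocks and 10150 nt of exon. It had 4416, 4504 and 4400.1 normalized counts in HP1-KD libraries, against 4055, 2919.6, 4506 and 3726 in control libraries. The HP1-KD libraries lay within 1.02-fold of each other and inside the range of the controls, of which only replicate 3 was higher. The log2 fold change of *N* was 0.22 (SE 0.147, 95% interval −0.11 to 0.56), and edgeR's adjusted p was 0.334. Without control replicate 3 it was 0.31, with an interval of 0.011 to 0.61 that excluded 0 and an edgeR adjusted p of 0.139.

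*Dl* (FBgn0000463, annotated as *Delta*) encodes the transmembrane ligand of Notch and occupies 19302731 to 19326217 of 3R (minus strand). *Dl* had 2090.2, 2004 and 1859 normalized counts in HP1-KD libraries, against 2339, 2112, 4442 and 2989.8 in control libraries. Every HP1-KD library was below every control library, although control replicate 2 exceeded HP1-KD replicate 1 by little. The log2 fold change of *Dl* was −0.58 (SE 0.249, interval −1.16 to −0.0085) and edgeR's adjusted p 0.168. Without control replicate 3 it was −0.33, with an adjusted p of 0.141. In this bulk RNA, fewer cells expressing a gene and less RNA in each such cell cannot be told apart.

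Both ubiquitin ligases that act on the ligand had lower means in HP1-KD embryos, with intervals that included 0. *neur* (FBgn0002932), encoding Neuralized, occupies 9020348 to 9039471 of 3R (minus strand), and 38.8% of its exon bases overlap the antisense gene *asRNA:CR31429*, which had at most 4.5 deposited counts in any library. *neur* had 2095, 2265 and 2206 normalized counts in HP1-KD libraries, against 2266, 2481, 5109.8 and 2822 in control libraries. The groups touched without overlapping, since the highest HP1-KD library and the lowest control library were nearly equal, at 2264.5 and 2265.95. Control replicate 3 was the single high value, and the log2 fold change of *neur* was −0.53 (SE 0.276, interval −1.17 to 0.10, edgeR adjusted p 0.235) with it and −0.21 (adjusted p 0.213) without it.

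*mib1* (FBgn0263601), encoding Mindbomb1, occupies 16006552 to 16011812 of 3L (minus strand) and was far less abundant. It had 153, 225 and 188 normalized counts in HP1-KD libraries, against 123, 251, 554 and 256 in control libraries. Control libraries spanned 4.52-fold, from below every HP1-KD library to above all of them. The log2 fold change of *mib1* was −0.65 (SE 0.457, interval −1.70 to 0.41, edgeR adjusted p 0.368) with all libraries and −0.16 (adjusted p 0.735) without control replicate 3.

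In the nucleus, the DNA-binding factor and its co-repressor partner pointed in opposite directions. *Su(H)* (FBgn0004837) encodes the factor through which Notch reaches its targets, and occupies 15039488 to 15043334 of 2L (plus strand). It had 885, 861 and 786 normalized counts in HP1-KD libraries, against 988, 973, 1225 and 1099 in control libraries. The groups did not overlap, and the controls lay within 1.26-fold of each other, the narrowest control range of the 10 genes. The log2 fold change of *Su(H)* was −0.34 (SE 0.12, interval −0.62 to −0.068), with an unadjusted p of 0.0207 and an adjusted p of 0.107 by edgeR's quasi-likelihood test. It was the member least moved by control replicate 3, without which it was −0.28 (adjusted p 0.0870).

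*H* (FBgn0001169) encodes Hairless, which binds Su(H) and recruits co-repressors to it. The gene occupies 20621938 to 20628915 of 3R (plus strand). *H* had 2112, 1959 and 1923 normalized counts in HP1-KD libraries, against 2262, 1399.6, 1033 and 1338 in control libraries. Control replicate 1 was the highest of all 7 libraries and the other 3 controls were below all HP1-KD libraries. *H* had the lowest value in control replicate 3, whereas the other 9 members had their highest value there. Its log2 fold change was 0.41 (SE 0.241, interval −0.15 to 0.96, edgeR adjusted p 0.291), and 0.26 (adjusted p 0.383) without control replicate 3. Without control replicate 1 the log2 fold change of *H* was 0.67 with an edgeR adjusted p of 0.0295, so that this library decided the call. Control replicate 1 had 47.2% of ribosomal RNA, against at most 18.1% in the other controls. The part of this in the call was not tested.

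The Bearded family genes *Tom*, *Brd* and *Ocho* lie close together on the plus strand of 3L, each of them without an intron. *Tom* (FBgn0026320) lies from 14969344 to 14970306, *Brd* (FBgn0000216) from 14972667 to 14973198 and *Ocho* (FBgn0040296) from 14974848 to 14976040. They are separated by 2360 bp between *Tom* and *Brd*, where the annotation lists 1 transposable element insertion, and by 1649 bp between *Brd* and *Ocho*. The related gene *BobA* lies 23218 bp before *Tom* on the minus strand, and the 4 genes together span 30542 bp. The proteins are small inhibitors of Neuralized.

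*Tom*, short for Twin of m4, carried the largest difference of the 10. It had 547, 769 and 691 normalized counts in HP1-KD libraries, against 789, 1118, 3639.6 and 1651 in control libraries. All HP1-KD libraries were below all control libraries, which themselves spanned 4.61-fold, with HP1-KD replicate 2 close to control replicate 1. The mean of *Tom* was 669 ± 113 normalized counts in HP1-KD libraries and 1799 ± 1277 in control libraries (SD, n = 3 and n = 4). Its log2 fold change was −1.43 (SE 0.498, interval −2.57 to −0.28), with an unadjusted p of 0.021 and an adjusted p of 0.108 by edgeR's quasi-likelihood test. Without control replicate 3 the HP1-KD mean was 56.4% of the control mean and the log2 fold change −0.83 (adjusted p 0.0596). The edgeR adjusted p for *Tom* passed 0.05 only when control replicate 1, the control nearest to the HP1-KD libraries, was left out (−1.67, adjusted p 0.0437), among the settings that leave out 1 library, and it also passed with DESeq2's Wald test (−1.42, adjusted p 0.0257) and with the total count alone as scaling (−2.53, edgeR adjusted p 0.00393).

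*Brd*, the founding gene of the family, showed no such difference. It had 207, 177 and 279 normalized counts in HP1-KD libraries, against 154, 208, 531 and 218 in control libraries. HP1-KD libraries lay within the range of the controls, of which replicate 3 was far above the rest. The log2 fold change of *Brd* was −0.34 (SE 0.428, interval −1.32 to 0.65, edgeR adjusted p 0.610), and it turned to 0.18 (adjusted p 0.598) without control replicate 3.

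*Ocho* had 133, 191 and 169.6 normalized counts in HP1-KD libraries, against 125, 218, 613 and 256 in control libraries. Control replicate 1 was below all HP1-KD libraries and the other 3 controls above them. The log2 fold change of *Ocho* was −0.88 (SE 0.501, interval −2.04 to 0.28, edgeR adjusted p 0.276) with all libraries and −0.28 (adjusted p 0.502) without control replicate 3.

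*E(spl)m8-HLH* (FBgn0000591), a bHLH repressor and a classical target of Notch, occupies 26040240 to 26041008 of 3R (plus strand) and was near the limit of detection. It had 2, 7 and 8 deposited counts in HP1-KD libraries, against 4, 2, 50 and 21 in control libraries, where 3 counts are the smallest level taken as shown. These correspond to 4.45, 9.27 and 16.5 normalized counts in HP1-KD libraries and 4.02, 1.52, 30.9 and 15.1 in control libraries. The groups overlapped and the controls ranged from 2 deposited counts, under that smallest level, to 50. A change of *E(spl)m8-HLH* could therefore not be told from the spread of the controls. Its log2 fold change was −0.39 (SE 0.952, interval −2.59 to 1.80, edgeR adjusted p 0.799), and it did not pass the filter on low counts without control replicate 3.

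**Figure D1:**
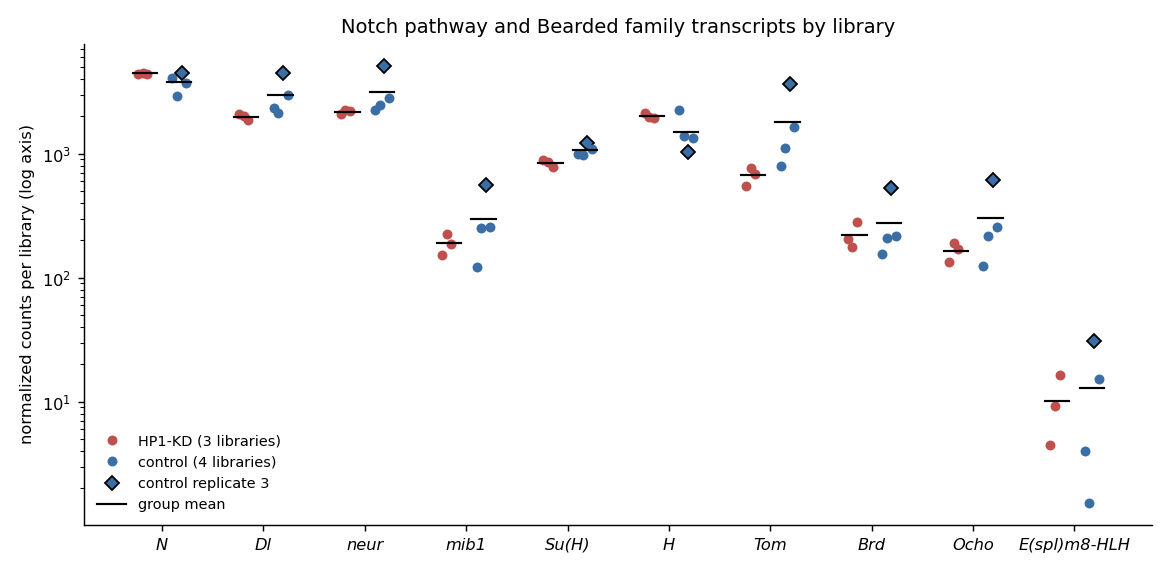
Normalized counts (log axis) of the 10 genes in each of the 3 HP1-KD libraries (left of each pair) and 4 control libraries, with group means as bars and control replicate 3 as a diamond. *Dl*, *neur*, *Su(H)* and *Tom* have every HP1-KD library below every control library, and the diamond is the highest point of its gene for 9 of the 10.

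Over the whole set, all 10 members passed the filter on low counts and 0 were called by edgeR's quasi-likelihood test at an adjusted p under 0.05, against 8.59% of the 8008 genes tested. At an unadjusted p under 0.05 the same test gave 3 members, *Dl*, *Su(H)* and *Tom*, against 28.8% of all genes. DESeq2's Wald test called 1 member, *Tom*, and limma-voom called 0. The ranges did not overlap for 4 members, all with HP1-KD below, against 15.1% of all genes in that direction and 30.3% in either. A negative log2 fold change was found for 8 of the 10, against 52.2% of all genes, and the median over the members was −0.46, against −0.029 over all genes tested. Without control replicate 3, 9 members were tested, 6 of them were negative and their median was −0.21. The blastoderm markers also had negative values for 9 of 10, with a median of −0.61. Without control replicate 3 they had 8 of 10 negative and a median of −0.45. The part of this difference in the member values was not tested. No member was called without control replicate 3 either, against 15.7% of the 7683 genes tested in that fit.

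**Figure D2:**
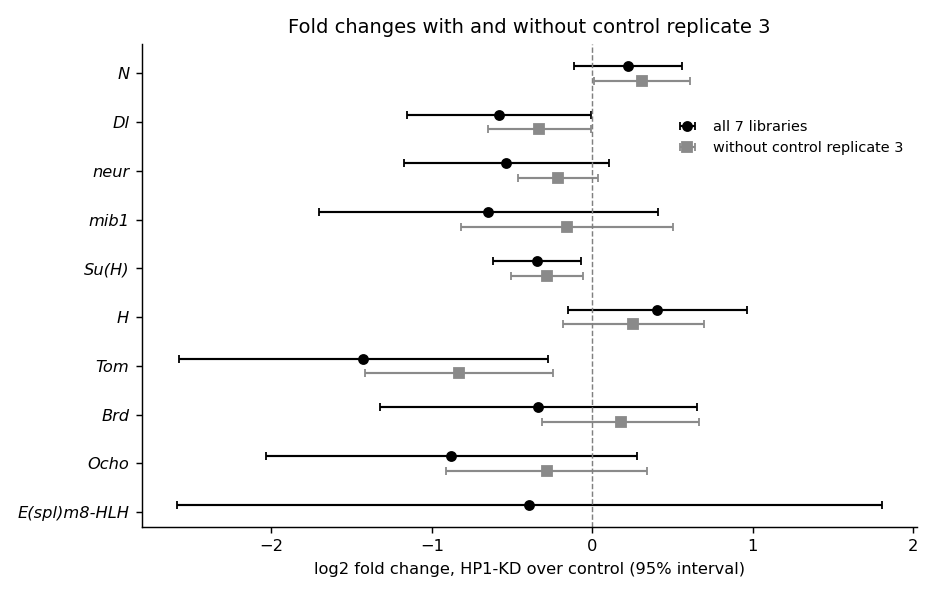
Log2 fold change of each gene, HP1-KD over control, with its 95% interval, from edgeR's fit to all 7 libraries (black circles) and without control replicate 3 (grey squares). The black interval excludes 0 for *Dl*, *Su(H)* and *Tom*, and leaving out control replicate 3 moves most values towards 0 and *Brd* across it.

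The spread between control libraries was the second feature of these genes. All 10 had a larger coefficient of variation among control libraries than among HP1-KD libraries, as did 68.8% of all genes tested. Without control replicate 3, a comparison added after seeing the data, this held for 9 members, *Brd* being the exception, and for 48.2% of all genes. In HP1-KD libraries it was 1.26% for *N*, 3.94% for *neur*, 5.04% for *H* and 5.89% for *Dl*, against 17.6%, 41.4%, 34.97% and 35.3% in control libraries for the same genes. For *Tom* it was 16.9% in HP1-KD libraries and 71.0% in control libraries. Leaving out control replicate 3 lowered the control value to 36.7% for *Tom*, 18.4% for *Dl*, 11.1% for *neur* and 17.7% for *Brd*, the last below the 23.7% of its HP1-KD libraries, whereas *N* stood at 16.4% and *H* at 31.0%. The medians over all genes were 13.5% in HP1-KD libraries and 21.9% in control libraries, or 13.8% without control replicate 3. The controls ranked in 1 order, replicate 3 above 4, above 2, above 1, for 5 members (*neur*, *mib1*, *Brd*, *Tom* and *Ocho*), and for 16.3% of all genes tested. This is also their order by counts outside ribosomal RNA, at 11775952, 10177456.5, 9252760 and 7324415.5 for replicates 3, 4, 2 and 1. Control replicate 3, the library with the lowest sum of maternal markers, was the highest control for 9 members, against 39.3% of all genes. The parts of counting error, of depth and of the difference in maternal RNA in this spread were not tested.

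**Figure D3:**
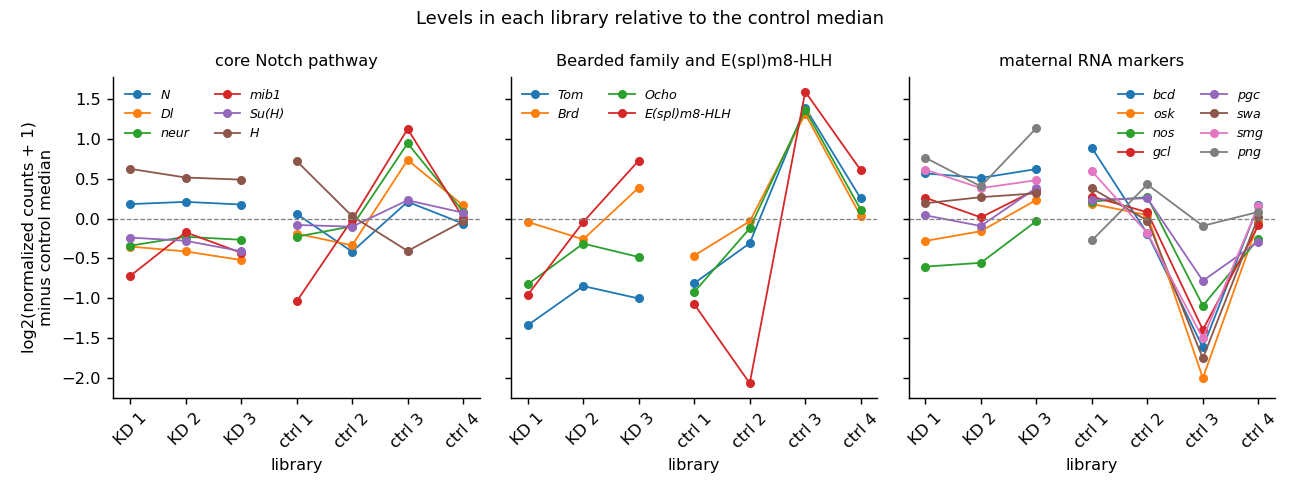
Level of each gene in each library as log2(normalized counts + 1) minus the control median, HP1-KD (KD) libraries on the left and control (ctrl) libraries on the right of each panel. In control replicate 3 *H* and the 8 maternal RNA markers fall below 0, while *N*, *Dl*, *neur*, *mib1*, *Su(H)*, *Tom*, *Brd*, *Ocho* and *E(spl)m8-HLH* lie above it.

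Likeness of profiles was measured as the root mean square difference, over the 7 libraries, of log2(CPM + 1) centred on each gene's own mean. By this measure *mib1* and *Ocho* were the closest pair of members, at 0.127, followed by *Dl* and *neur*, at 0.130. *Tom* was closest to *Ocho*, at 0.294, and farthest from *H*, at 1.22, the largest distance between any pair of members. Outside the members, the genes closest to *Tom* were *pxb* (0.0859), *asRNA:CR44690* (0.121) and *sob* (0.126), a zinc finger gene of the odd-skipped family, where the median gene stood at 0.888. Those close to *Dl* included *CG7702* (0.0718) and *scrt* (0.101), a zinc finger gene of the nervous system, with a median of 0.487. These neighbours of *Dl* had low counts, which the pseudocount of 1 draws together, and with a pseudocount of 0.1, chosen after seeing the data, only *pxb* stayed among the named neighbours of *Tom* or *Dl*.

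Levels were compared between genes as CPM per kb of exon. *Tom* ranked highest in control embryos, at 48.2 ± 8.12 in HP1-KD libraries and 130 ± 92.0 in control libraries (SD, n = 3 and n = 4), and was above *neur*, the next gene, in every library. *neur* followed with 35.2 in HP1-KD libraries and 51.0 in control libraries. It was above *Dl*, with 26.1 in HP1-KD libraries and 39.0 in control libraries, in every library. *Brd* (28.8 in HP1-KD and 36.2 in control libraries), *N* (30.3 in HP1-KD and 26.0 in control libraries) and *Su(H)* (19.8 in HP1-KD and 25.2 in control libraries) came next. *Dl* exceeded *Brd* in 2 of 3 HP1-KD and 3 of 4 control libraries, *Brd* exceeded *N* in 1 of 3 HP1-KD and 3 of 4 control libraries, and *N* exceeded *Su(H)* in 3 of 3 HP1-KD and 2 of 4 control libraries, so that these neighbours did not differ beyond their spread in the controls. *Ocho* (9.56 in HP1-KD and 17.6 in control libraries) and *H* (23.1 in HP1-KD and 17.4 in control libraries) were nearly equal in control means. *H* was above *Ocho* in every HP1-KD library and in every control except replicate 3, where *Ocho* had 35.6 and *H* 11.9. *mib1* (3.20 in HP1-KD and 5.01 in control libraries) and *E(spl)m8-HLH* (0.910 in HP1-KD and 1.16 in control libraries) were lowest, in that order in every library.

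Within the 3L cluster, ratios between genes of the same library do not depend on the scaling of libraries. The 6 pairs of *Tom*, *Brd*, *Ocho* and *BobA* were chosen after their values were seen. The ratio of *Tom* to *Ocho* in deposited counts was 4.13, 4.02 and 4.08 in HP1-KD libraries, against 6.35, 5.14, 5.94 and 6.44 in control libraries. The 3 HP1-KD ratios were close together and below all control ratios. The difference of means was −0.54 on the log2 scale, and −0.54 again without control replicate 3. *Ocho* had only 59.5, 144.5 and 82 deposited counts in HP1-KD libraries. Counting error of the ratios was not estimated, so their closeness is no measure of precision. The ratio of *Tom* to *Brd* was 2.65, 4.34 and 2.48 in HP1-KD libraries, against 5.13, 5.38, 6.86 and 7.58 in control libraries. These groups did not overlap either, and the log2 difference was −1.01, or −0.96 without control replicate 3. *Tom* to *BobA* overlapped, with 0.791, 1.15 and 0.938 in HP1-KD libraries, against 1.08, 1.26, 1.67 and 1.29 in control libraries.

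The ratio of *Brd* to *BobA* went the other way, with 0.299, 0.265 and 0.379 in HP1-KD libraries, against 0.210, 0.234, 0.244 and 0.171 in control libraries, a log2 difference of 0.55. An exact two-sided permutation test over the libraries gave p = 0.0571 for each of the 3 pairs that did not overlap, which is the smallest p that this design allows, and 0.114 after adjustment over the 6 pairs. *Brd* to *Ocho* (log2 difference 0.47, exact permutation p = 0.171) and *Ocho* to *BobA* (0.079, exact permutation p = 0.8) overlapped. Of the 7876 other genes with a count in every library, 43.5% also had a ratio to *Tom* without overlap and with HP1-KD below, so a lower *Tom* ratio is not particular to its neighbours. For *Brd* 8.1% of ratios to other genes did not overlap in either direction, and for *Ocho* 9.08%. As shares of the cluster's summed CPM per kb, *Tom* took 26.2% to 33.8% in HP1-KD libraries and 34.4% to 43.1% in control libraries, and *Brd* took 14.1% to 20.5% in HP1-KD libraries and 9.36% to 12.4% in control libraries.

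**Figure D4:**
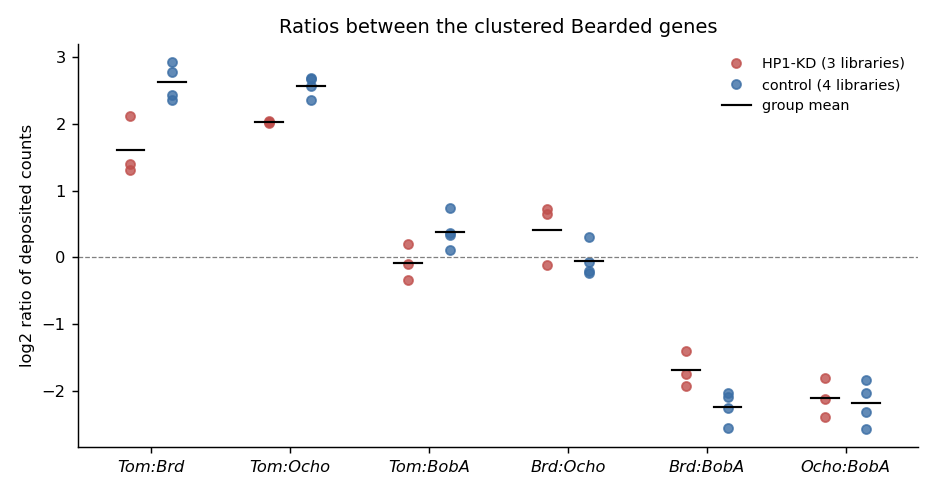
Log2 ratio of deposited counts for the 6 pairs of clustered Bearded genes in each HP1-KD library (left of each pair) and control library, with bars at group means. HP1-KD points lie below all control points for *Tom*:*Brd* and *Tom*:*Ocho* and above them for *Brd*:*BobA*.

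Of the other Bearded family and E(spl) bHLH genes, 11 were matched in the table, 5 passed the filter and 0 were called by edgeR's test, by DESeq2 or by limma-voom. Only 1 had an unadjusted p under 0.05, *BobA*, and the median log2 fold change of the 5 was −0.58, or 0.28 without control replicate 3. *BobA* (FBgn0040487), the most abundant of them, is one of a set of near-identical copies, so that its count is uncertain. It had 692, 670.1 and 736 normalized counts in HP1-KD libraries, against 735, 888, 2177 and 1278 in control libraries. HP1-KD replicate 3 and control replicate 1 were nearly equal, and the log2 fold change of *BobA* was −0.86 (SE 0.353, edgeR adjusted p 0.156), or −0.48 (adjusted p 0.122) without control replicate 3. *E(spl)m7-HLH*, the most abundant of the other bHLH repressors, had 35.6, 34.4 and 66.2 normalized counts in HP1-KD libraries, against 11.1, 38.1, 119 and 59.1 in control libraries. Its log2 fold change was −0.35 (SE 0.691, edgeR adjusted p 0.750) and turned to 0.28 without control replicate 3. The 6 genes that were not tested included *E(spl)m3-HLH* and *E(spl)mgamma-HLH*, each with 1 count in 1 of the 7 libraries.

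Among 30 other genes of the pathway, 28 were tested, 1 was lower in HP1-KD embryos and 0 were higher by edgeR's test, against backgrounds of 4.9% and 3.7% of all genes tested. At an unadjusted p under 0.05 there were 10 of the 28, against 28.8% of all genes, and the median log2 fold change was −0.10, or 0.023 without control replicate 3. The gene called was *pen-2*, a subunit of the gamma-secretase that releases the intracellular part of Notch. It had 191, 212 and 165 normalized counts in HP1-KD libraries, against 276, 339.6, 313 and 278 in control libraries. All HP1-KD libraries were below all control libraries, with a log2 fold change of −0.67 (SE 0.156, edgeR adjusted p 0.0402), or −0.65 (adjusted p 0.0279) without control replicate 3. The call for *pen-2* did not hold without HP1-KD replicate 1, 2 or 3 (adjusted p 0.148, 0.0852 and 0.164), without control replicate 2 or 4 (0.0871 and 0.0947), without a filter on low counts (0.0625) or with limma-voom (0.0590), all with the same sign.

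The ligand and receptor processing genes had a median log2 fold change of −0.28 over 11 tested, the trafficking genes 0.21 over 10 and the nuclear cofactors −0.047 over 7. *Fur2*, a furin-type protease and the most abundant of the processing genes, had 4212, 3329 and 4082 normalized counts in HP1-KD libraries, against 3755, 2242, 832 and 2537 in control libraries, with an edgeR adjusted p of 0.273 for a log2 fold change of 0.73, or 0.154 for 0.44 without control replicate 3. *aux*, the clathrin uncoating factor auxilin, had the highest mean of the trafficking genes over the 7 libraries, although *mib2* was higher in HP1-KD libraries and *numb* in control libraries. It had 1748, 1816 and 1946 normalized counts in HP1-KD libraries, against 1919.8, 1534, 1716 and 1635 in control libraries, a log2 fold change of 0.11 (edgeR adjusted p 0.511), or 0.11 (adjusted p 0.525) without control replicate 3. Neither gene separated the groups.

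*nej*, the acetyltransferase CBP, had the highest mean of the nuclear cofactors over the 7 libraries, although *CtBP* was higher in control libraries (4987 against 3559). *nej* had 7889, 7609 and 8982 normalized counts in HP1-KD libraries, against 4858, 2594, 5211 and 1572 in control libraries. The co-activator *mam*, encoding Mastermind, and the co-repressor *SMRTER* also had every HP1-KD library above every control library. These 3 were the only genes of the 28 with that arrangement, which 15.2% of all genes tested had, while 7 of the 28 had every HP1-KD library below every control, against 15.1% of all genes. The log2 fold changes were 1.2 for *nej*, 0.88 for *mam* and 1.18 for *SMRTER*, with edgeR adjusted p of 0.0863, 0.0886 and 0.0867. Without control replicate 3 they were 1.44, 1.11 and 1.32 with adjusted p of 0.0291, 0.0140 and 0.0481, and *rumi*, a glycosyltransferase that modifies Notch, was lower at −0.49 (adjusted p 0.0237). That fit therefore called 5 of the 27 pathway genes tested, *pen-2* included, 3 higher and 2 lower, against 7.47% and 8.28% of all genes.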

How the data were processed

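The authors deposited 1 table of estimated counts per FlyBase gene, without normalization, in steps of 0.5, from TruSeq Stranded Total RNA libraries. The submitters' processing notes name STAR and dm6, while the counting program and its strand setting are not given in the sources used here. Gene positions came from the Ensembl 115 annotation of dm6. Of 17699 identifiers, 17561 were matched to a symbol. Values were rounded, filtered by filterByExpr (8008 genes) and scaled by TMM, and groups were compared with edgeR 4.0.16's quasi-likelihood F-test in R 4.3.3, the group being its single term, with Benjamini-Hochberg adjusted p under 0.05 called. DESeq2 1.42.0, limma 3.58.1 voom, other scalings and filters, a replicate block and leaving out each library were tried. Ratios were tested by exact permutation in scipy 1.17.1. The standard error was the log2 fold change divided by the root of F, and intervals cover 95%. The floor of 3 counts corresponded to 3.97 to 6.67 normalized counts in HP1-KD libraries and 1.86 to 3.02 in control libraries, and covers counting error only.

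The members and the gene lists were chosen with earlier results of these data known. Genes named were the 10 members, *Su(var)2-5*, each gene of the other lists with an adjusted p under 0.05, the gene of each list with the highest mean over the 7 libraries, and the 3 genes closest in profile to *Tom* and to *Dl* among genes with a mean of at least 10 normalized counts. *mam*, *SMRTER*, *rumi*, *E(spl)m3-HLH* and *E(spl)mgamma-HLH* were named after their values were seen. *BobB* and *BobC* were not analysed here, and 1 gene that the rule names is not reported here.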

Additional observations from a re-analysis of the deposited data

Results flagged for a closer look

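*Brd* had 531 normalized counts in control replicate 3, far from the other 3 control libraries. The gap to the nearest control was 0.831 of the range of the group, just past Dixon's critical value for 4 samples. This was 1 of 17 groups examined, and chance puts about 1 in 20 past the limit. The other members in control replicate 3 did not pass it.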

How the results depend on the processing

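Of 186 member values under other settings, 176 kept their direction and their side of the threshold. With the total count alone as scaling, the median of all genes moved to −1.15, and *N* (−0.87), *H* (−0.65), *Fur2* (−0.39), *aux* (−0.99) and *mam* (−0.29) became negative. That scaling called 3 members, 1 other Bearded or E(spl) gene, 3 other pathway genes and 1095 genes in all (31 higher, 1064 lower), against 688 (296 higher, 392 lower) with TMM. Direction also turned for *Brd* and *E(spl)m7-HLH* without control replicate 3, with ranges of −0.53 to 0.18 and −0.70 to 0.28 over the libraries left out, and for *E(spl)m8-HLH* (0.22) with limma-voom. It turned for the *Ocho* to *BobA* ratio without HP1-KD replicate 2 (−0.068) or control replicate 1 (−0.046), the highest value over the libraries left out being 0.22. DESeq2's Wald test called 1 member, 7 other pathway genes and 1488 genes. A minimum of 10 counts in every library gave 439 genes and protein-coding genes alone 404. Other pathway genes called were 0 with no filter and 0 with limma-voom. Leaving out each library in turn gave 0 to 2 members, 0 to 5 other pathway genes and 181 to 1210 genes in all. For all genes, the lowest count came without HP1-KD replicate 3 and the highest without control replicate 3. The 2 members, *H* higher and *Tom* lower, were called without control replicate 1, the control with the most ribosomal RNA. The cause of these shifts was not tested.

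Deviations of log2(CPM + 1) from each gene's own group mean were correlated between HP1-KD and control libraries. Correlations of these deviations were 0.46, −0.11 and 0.06 for same-numbered libraries, and −0.45 to 0.33 for libraries of different numbers. These few values cannot settle whether replicate numbers pair the libraries. A replicate block over replicates 1 to 3 called 96 genes, 0 members and 0 other pathway genes, and turned *E(spl)m7-HLH* to 0.067. *Su(var)2-5* stayed called at −1.37 (edgeR adjusted p 0.0404). *E(spl)m8-HLH* could not be tested with the block, with at least 10 counts in every library, or without control replicate 3 or 4.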
